A study of Homo sapiens with 45 samples.

Results

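The contacts described here were chromatin contacts of poised enhancers that were called in control cells and absent after both of 2 compounds directed at Polycomb repressive complex 2 (PRC2). They were chosen by their scores: bait and other end on the same chromosome, an other end that was not itself captured, a distance of at most 500 kb, a score of at least 5 in DMSO, and scores under 1 after both UNC6852 and UNC1999. This rule found 2870 contacts among the 434524 listed pairs, and they are called DMSO-only below. They were 2.66% of the 108024 listed pairs that met the rule on distance and other end, and 5.94% of the 48351 such pairs called in DMSO. Because the scores chose them, their scores are given as a description and support nothing. The same rule was run with each compound in the place of DMSO, and the resulting UNC6852-only and UNC1999-only contacts are given for comparison.

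Every group came from HNES1, a human embryonic stem cell line in established use, harvested at day 5 of the naive-to-primed transition in medium with XAV939. The treated groups received UNC6852, a degrader of the PRC2 subunit EED, at 2.5 µM, or UNC1999, an inhibitor of the catalytic subunits EZH1 and EZH2, at 1 µM. Treatment began 24 h before day 0 and was renewed daily, and control cells received the solvent DMSO in like volume. The doses of the compounds differ, so their values are set side by side only. Poised-enhancer capture Hi-C was done on 3 biological replicates per condition, as 15 libraries each from 2 batches, and 1 pooled column of CHiCAGO scores was used per condition. Replicate spread, read depth, EED protein and histone methylation were thus not measured in the values used here, and no comparison below has a test. A CHiCAGO score states how far the reads that join a bait and another fragment exceed what distance and background predict, and 5 is the level at which a contact counts as called.

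Poised enhancers, found near many developmental genes in pluripotent cells, carry histone marks of both activity and Polycomb repression. PRC2 places the repressive methyl mark on histone H3 lysine 27, and EED is needed for its activity. In vertebrates Polycomb complexes gather at islands rich in CpG, many of them at promoters of developmental regulators, and such regions can meet over long distances in embryonic stem cells.

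Promoter sequences that overlapped the bait or the other end of leading DMSO-only contacts are shown to let the kinds of site be compared. They run 5′ to 3′ on the gene's strand, over 300 bases from 250 before to 50 after the RefSeq start (GRCh38.p14), and capitals mark each CpG. TNRC6B, a partner of Argonaute in microRNA silencing, has its start in the other end of a contact that scored 11.9 in DMSO (chr22:40044584-40044883, plus strand, 15 CpG). HOXD12, a homeobox gene of the limb, has its start in the bait of a contact that scored 10.5 (chr2:176099545-176099844, plus strand, 19 CpG). KRT85, a hair keratin, has its start in an other end that scored 9.88 (chr12:52364573-52364872, minus strand, no CpG). TIPRL, a regulator of TOR signalling, has its start in an other end that scored 8.70 (chr1:168178712-168179011, plus strand, 26 CpG). VAX1, a homeobox regulator of the ventral forebrain and eye, has a promoter window that overlaps a bait whose contact scored 6.27, with the start itself outside that fragment (chr10:117138221-117138520, minus strand, 37 CpG).
TNRC6B: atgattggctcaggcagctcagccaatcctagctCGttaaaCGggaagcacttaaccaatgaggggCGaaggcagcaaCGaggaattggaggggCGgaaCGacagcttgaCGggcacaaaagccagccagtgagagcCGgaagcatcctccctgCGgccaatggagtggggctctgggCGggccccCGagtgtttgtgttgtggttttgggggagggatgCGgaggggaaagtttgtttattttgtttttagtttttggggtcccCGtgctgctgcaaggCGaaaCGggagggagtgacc
HOXD12: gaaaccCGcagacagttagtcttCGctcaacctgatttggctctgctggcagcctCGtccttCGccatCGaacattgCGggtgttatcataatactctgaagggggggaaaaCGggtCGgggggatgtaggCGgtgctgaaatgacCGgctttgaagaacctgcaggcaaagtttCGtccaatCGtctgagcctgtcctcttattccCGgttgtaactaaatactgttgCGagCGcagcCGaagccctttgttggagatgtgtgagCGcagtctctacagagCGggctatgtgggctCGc
KRT85: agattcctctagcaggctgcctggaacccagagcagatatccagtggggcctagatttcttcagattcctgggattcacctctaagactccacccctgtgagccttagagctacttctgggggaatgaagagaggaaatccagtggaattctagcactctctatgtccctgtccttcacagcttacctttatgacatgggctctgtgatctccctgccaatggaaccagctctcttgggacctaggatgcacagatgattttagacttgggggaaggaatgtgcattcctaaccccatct
TIPRL: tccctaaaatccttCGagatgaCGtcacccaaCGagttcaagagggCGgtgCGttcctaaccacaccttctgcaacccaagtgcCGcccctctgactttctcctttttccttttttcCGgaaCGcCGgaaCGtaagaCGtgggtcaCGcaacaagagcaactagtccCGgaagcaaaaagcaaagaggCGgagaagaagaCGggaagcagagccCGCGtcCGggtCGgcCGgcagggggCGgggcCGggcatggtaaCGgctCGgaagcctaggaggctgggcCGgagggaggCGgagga
VAX1: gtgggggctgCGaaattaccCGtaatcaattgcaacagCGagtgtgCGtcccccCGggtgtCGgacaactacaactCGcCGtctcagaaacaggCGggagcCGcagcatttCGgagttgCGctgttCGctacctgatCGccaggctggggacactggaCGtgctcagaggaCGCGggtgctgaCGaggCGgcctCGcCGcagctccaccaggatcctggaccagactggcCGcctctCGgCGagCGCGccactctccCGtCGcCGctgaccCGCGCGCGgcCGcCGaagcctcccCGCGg

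These promoters ranged from CpG-free to CpG-rich. Over all protein-coding promoter windows overlapping the other ends of DMSO-only contacts, 157 in number, the median was 15 CpG per window (quartiles 5.00 and 27.0). The 174 windows at UNC6852-only other ends had a median of 18.0, the 152 windows at UNC1999-only other ends 23.5, and the 1478 windows at the other ends of all DMSO calls 16.0. All 22199 protein-coding promoter windows had a median of 21.0. With windows at baits included, the medians were 21.5 for DMSO-only (412 windows), 23.0 for UNC6852-only (403), 25 for UNC1999-only (407) and 20 for all DMSO calls (2669). GATC, the letters cut by the enzyme DpnII used in the assay (the same letters on both strands), stood in 72 of the 157 DMSO-only other-end windows, or 45.9%. It stood in 87 of the 174 UNC6852-only windows, in 58 of the 152 UNC1999-only windows (38.2%), in 47.4% of the windows of all DMSO calls and in 40% of all promoter windows. The letters TATAAA, read on the gene's strand only, stood in 5.73% of DMSO-only, 5.75% of UNC6852-only and 4.61% of UNC1999-only windows, in 5.75% of those of all DMSO calls and in 6.48% of all promoter windows.

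The first comparison asked how many contacts the same rule finds when a treated profile takes the control's place. DMSO-only contacts numbered 2870, or 5.94% of DMSO calls (exact 95% interval 5.73 to 6.15). UNC6852-only contacts numbered 3164, or 6.12% of UNC6852 calls (5.92 to 6.33) and 2.93% of listed pairs in range. UNC1999-only contacts numbered 2735, or 5.73% of UNC1999 calls (5.52 to 5.94) and 2.53% of listed pairs in range. The DMSO share lay between those of the compounds, and neighbouring intervals overlapped. Intervals here are binomial ones over called pairs and cover counting error only. Of the listed pairs in range, 47.8% reached the call threshold in UNC6852, 44.2% in UNC1999 and 44.8% in DMSO. The order of the 3 shares depended on how scores were scaled: when the columns were quantile-normalized over all listed pairs, the DMSO-only share was 8.40%, against 3.21% for UNC6852-only and 2.89% for UNC1999-only. After that scaling 13.8% of pairs in range were under 1 in UNC6852, 16.6% in UNC1999 and 4.55% in DMSO, where the deposited scores had 10.4% in UNC6852, 12.2% in UNC1999 and 11.9% in DMSO. Most listed pairs lay out of range, and over all of them 46.4% scored exactly 0 in UNC6852, 45.8% in UNC1999 and 49.8% in DMSO. In range, 2.98% scored 0 in UNC6852, 3.8% in UNC1999 and 3.69% in DMSO. What part these zeros had in the shares after that scaling was not tested. With quantiles matched over the pairs in range alone, the shares were 6.05% for DMSO-only, 5.55% for UNC6852-only and 5.77% for UNC1999-only.

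Most calls that did not recur scored between 1 and 5 in at least 1 other profile. Of the DMSO calls in range, 25906 (53.6%) were called in neither compound, and 2870 of these, or 11.1%, were under 1 in both. For UNC6852 the values were 28044 and 11.3%, and for UNC1999 they were 25229 and 10.8%. Scores under 1 in UNC6852 alone, whatever UNC1999 showed, were found for 5878 DMSO calls (12.2%), and scores under 1 in UNC1999 for 6626 (13.7%). Of the 5878 calls, 48.8% were also under 1 in UNC1999, and 218 were called there. Of the 6626 calls, 43.3% were also under 1 in UNC6852, and 358 were called there. For UNC6852 calls under 1 in DMSO, 45.8% were also under 1 in UNC1999, and for those under 1 in UNC1999, 46.1% were also under 1 in DMSO. For UNC1999 calls under 1 in DMSO, 43.4% were also under 1 in UNC6852, and for those under 1 in UNC6852, 49.2% were also under 1 in DMSO. The DMSO shares lay within the range of the others, except that 43.3% was slightly below it. These counts share their columns and are set side by side only.

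DMSO-only contacts were weak and distant, as were those of the other classes. Their DMSO scores had a median of 5.59 (quartiles 5.26 and 6.18), against 6.04 for all DMSO calls in range, and 1987 of them (69.2%) scored under 6. UNC6852-only contacts had a median of 5.62 in UNC6852 (66.2% under 6), and UNC1999-only contacts 5.61 in UNC1999 (67.6%). Of the DMSO-only contacts, 269 reached 7 and 13 reached 10. UNC6852-only contacts reached 7 in 368 cases and 10 in 25, and UNC1999-only contacts in 310 and 15. The treated scores of the DMSO-only contacts had medians of 0.316 in UNC6852 and 0.239 in UNC1999. A score of exactly 0 in both was found for 585 of them (20.4%), against 776 (24.5%) of UNC6852-only and 546 of the 2735 UNC1999-only contacts in their own other profiles. At the edges of the rule, the lowest DMSO scores inside it were 5.0009, 5.0010 and 5.0010, and no listed pair with both treated scores under 1 lay below 5 in DMSO, since every listed pair reached 5 in at least 1 profile. The higher treated score was 0.9999, 0.9996 and 0.9995 in the 3 members just inside the limit of 1, and 1.0009, 1.0017 and 1.0017 in the DMSO calls just outside. In distance, the last members lay at 499.89, 499.84 and 499.83 kb, and like pairs just beyond the limit at 500.07, 500.15 and 500.25 kb.

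Distance was not used by the rule below its limit. The median distance was 341 kb for DMSO-only, 334 kb for UNC6852-only and 342 kb for UNC1999-only contacts, against 234 to 236 kb for all calls of each profile. No DMSO-only contact lay under 20 kb, where there were 614 DMSO calls (upper bound 0.599%), 46 lay at 20 to 100 kb (0.837% of calls there), and 2824 lay at 100 to 500 kb (6.69%, interval 6.45 to 6.93). The last share was 6.83% for UNC6852-only and 6.41% for UNC1999-only contacts. By score, 8.45% of the DMSO calls between 5 and 6 were DMSO-only, 5.51% between 6 and 7, 2.43% between 7 and 10, and 0.408% from 10 upward. UNC6852-only contacts made up 8.62%, 5.87%, 2.98% and 0.641% of UNC6852 calls in these bands, and UNC1999-only contacts 8.13%, 5.28%, 2.79% and 0.426% of UNC1999 calls. In both bands from 7 upward the DMSO-only share was the lowest of the 3, but its interval overlapped those of both other classes. Between 7 and 10 the intervals were 2.15 to 2.74 for DMSO-only, 2.68 to 3.31 for UNC6852-only and 2.48 to 3.12 for UNC1999-only contacts. Other ends lay at a higher coordinate than the bait in 1417 DMSO-only contacts and at a lower one in 1453.

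**Figure D1:**
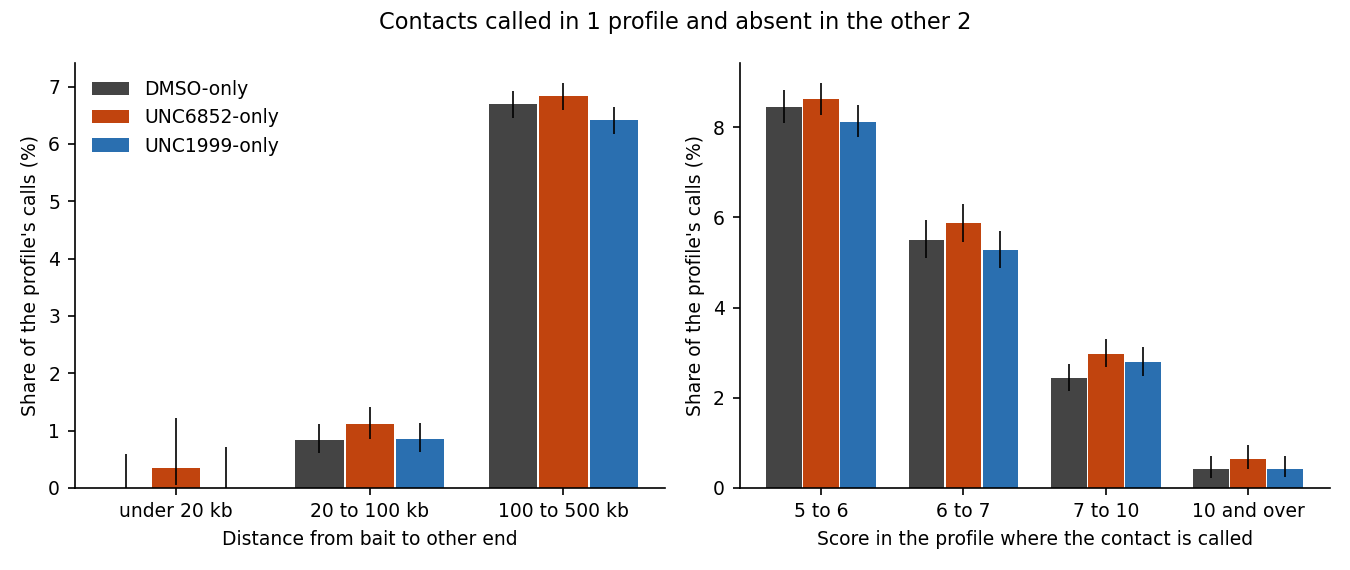
Share of each profile's calls within 500 kb that were absent (score under 1) in both other profiles, by distance class (left) and by score in the calling profile (right), for DMSO-only, UNC6852-only and UNC1999-only contacts. Bars are percentages with exact 95% binomial intervals over pairs; all profiles follow the same course, with the DMSO bar at 6.69% from 100 to 500 kb and 8.45% for scores of 5 to 6.

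The strongest DMSO-only contacts joined fragments 231 to 498 kb apart. A bait 1.24 kb from KCNMA1, which encodes the large calcium-activated potassium channel, met a fragment inside that gene 458 kb away with 0.949 in UNC6852, 0 in UNC1999 and 15.5 in DMSO. This was the highest score of the class, and 3 neighbouring fragments within 5 of the other end were called from the same bait in each compound, against 2 in DMSO. A bait inside KCNG3, a modifier subunit of potassium channels, met a fragment inside MTA3, a subunit of the NuRD remodelling complex, 231 kb away with 0.906 in UNC6852, 0.511 in UNC1999 and 12.8 in DMSO. Neither compound nor DMSO had a called neighbour there. A bait 10.4 kb from CACNA1I, a calcium channel gene, met the adjoining ends of FAM83F and TNRC6B 483 kb away (chromosome 22, 40039344 to 40045533) with 0.732 in UNC6852, 0.953 in UNC1999 and 11.9 in DMSO. A bait 4.25 kb from POU4F1, a homeobox regulator of sensory neurons, met a fragment 473 kb away with 0.199 in UNC6852, 0 in UNC1999 and 11.9 in DMSO. Its nearest gene was EDNRB, the endothelin receptor of the neural crest, at 157 kb.

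Contacts near EMX2 and HOXD12 were among the other members of the top group. A bait at an end of SLC18A2, the vesicular monoamine transporter gene, met a fragment 9.49 kb from EMX2, a homeobox regulator of the forebrain, with 0.804 in UNC6852, 0 in UNC1999 and 10.6 in DMSO. The bait at HOXD12 (chromosome 2, 176099240 to 176100786) met a fragment 498 kb away in the gene-poor stretch 319 kb from LNPK, with 0 in UNC6852, 0.542 in UNC1999 and 10.5 in DMSO, and this was its single DMSO call in range. Over all fragments at its ends, HOXD12 had 1 call in range in UNC6852, 2 in UNC1999 and 1 in DMSO. A bait inside PRKG1, a cyclic-GMP-dependent kinase gene, met another stretch of the same gene 427 kb away with 0 in UNC6852, 0.451 in UNC1999 and 10.9 in DMSO. A bait 35.6 kb from LARP1, an RNA-binding protein gene, met a fragment near KIF4B, a kinesin gene, with 0.986, 0.257 and 11.6 in UNC6852, UNC1999 and DMSO. The last places were held by a bait near OAT with CHST15 (0.604, 0.658 and 11 in the same order) and a bait near CPXM2 with a fragment 82.2 kb from GPR26 (0.647, 0.906 and 10.4). For comparison, the strongest UNC6852-only contact, of a bait inside TSPAN15 with a fragment 3.23 kb from FAM241B, scored 14.8 in UNC6852, 0 in UNC1999 and 0 in DMSO. The strongest UNC1999-only contact, at SV2B, scored 0.884 in UNC6852, 11.9 in UNC1999 and 0.799 in DMSO.

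**Figure D2:**
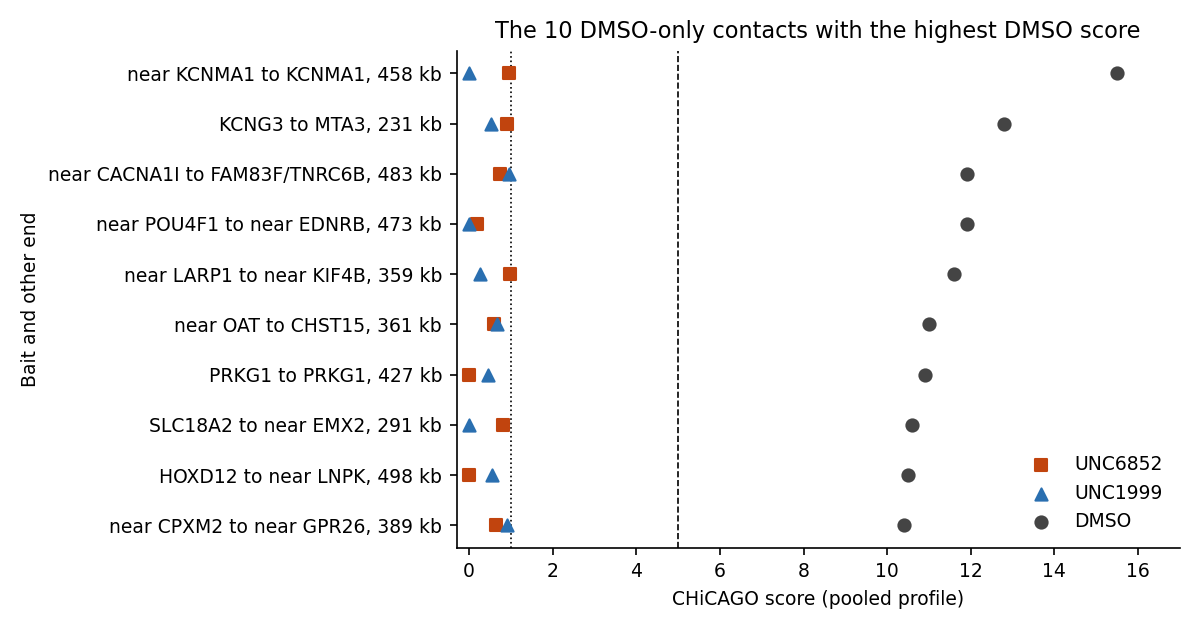
CHiCAGO scores (x axis, linear) of the 10 DMSO-only contacts with the highest DMSO score in the pooled UNC6852, UNC1999 and DMSO profiles, 1 contact per line with the genes at or near bait and other end and the distance. The dashed line marks the call threshold of 5 and the dotted line the limit of 1; DMSO points run from 10.4 to 15.5, by the rule that chose them.

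Next, contacts with an end of a protein-coding gene within 1000 bp of the other end were examined. Either annotated end of a gene counted, so its start need not lie in or near the fragment. After the contact with FAM83F and TNRC6B, the highest DMSO scores were those of a bait near KRT77 with KRT85 over 349 kb (0.815 in UNC6852, 0.879 in UNC1999 and 9.88 in DMSO), and of a bait inside SPEG with the shared ends of ANKZF1 and GLB1L over 252 kb (0.436, 0 and 9.55). TLR7, a receptor of the innate response to RNA, was met from 393 kb away with 0 in both compounds and 9.17 in DMSO. PPM1D, a phosphatase of the p53 response, was met from a bait at USP32 with 0.988 in UNC6852, 0.180 in UNC1999 and 8.86 in DMSO. TIPRL was met over 361 kb from inside ADCY10 with 0.675, 0 and 8.70, and STX8, a gene of vesicle fusion, from a bait at PIK3R5 with 0.569, 0.645 and 8.64, in the same order of profiles. The others of this group were CFAP95, ASB16 and CEACAM4, with DMSO scores of 9.30, 9.01 and 9.0.

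In all, 357 DMSO-only contacts (12.4%, interval 11.3 to 13.7) had an end of a protein-coding gene within 1000 bp of the other end, against 12.6% of all DMSO calls. The share was 13.1% in UNC6852-only contacts against 12.1% of UNC6852 calls, and 13.7% in UNC1999-only contacts against 12.2% of UNC1999 calls. At 100 to 500 kb, where nearly all DMSO-only contacts lay, the order turned, with 12.3% (11.1 to 13.6) of DMSO-only contacts against 11.6% of DMSO calls. In that range the values were 13% against 11.3% for UNC6852-only contacts and UNC6852 calls, and 13.7% against 11.4% for UNC1999-only contacts and UNC1999 calls. A gene end at the bait was found for 743 DMSO-only contacts, or 25.9% (24.3 to 27.5), which lay above the 22.7% of all DMSO calls. The same held for UNC6852-only contacts, with 25.9% against 22.5% of UNC6852 calls, and for UNC1999-only contacts, with 27.8% against 22.7%. A promoter window overlapping the bait was found for 8.43% of DMSO-only contacts against 6.12% of DMSO calls, for 7.05% of UNC6852-only contacts against 5.83% of UNC6852 calls, and for 8.85% of UNC1999-only contacts against 6.20% of UNC1999 calls. Neither end was at a gene end in 1874 DMSO-only contacts (65.3%), against 68.4% of all DMSO calls. It was 65.2% for UNC6852-only contacts against 68.8% of UNC6852 calls, and 63.3% for UNC1999-only contacts against 68.7% of UNC1999 calls.

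Genes of developmental regulators were then taken as lists. The 4 HOX clusters with EVX1 and EVX2 had 14 DMSO-only contacts among 442 DMSO calls in range, or 3.17% (1.74 to 5.26), below the 5.94% over all DMSO calls. They had 19 UNC6852-only contacts among 460 UNC6852 calls (4.13%, 2.50 to 6.38) and 12 UNC1999-only contacts among 429 UNC1999 calls (2.80%, 1.45 to 4.84). Each of the 3 shares at HOX genes was below that over all calls of its profile. The UNC6852-only interval held the 6.12% over all UNC6852 calls. HOXD1 took part in 3 DMSO-only contacts, no UNC6852-only contact and 1 UNC1999-only contact. The strongest joined it to a fragment 464 kb away with 0.723 in UNC6852, 0 in UNC1999 and 6.11 in DMSO. HOXD9 had 2, the stronger at 467 kb with 0.466 in UNC6852, 0.838 in UNC1999 and 7.43 in DMSO, and no contact of the other classes. HOXC11 had 2 DMSO-only, 2 UNC6852-only and 1 UNC1999-only contacts, and its strongest DMSO-only contact met the adjoining ends of HNRNPA1, a splicing regulator, and CBX5, which encodes the heterochromatin protein HP1 alpha, with 0 in both compounds and 5.73 in DMSO.

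Homeobox regulators outside the HOX clusters had 30 DMSO-only contacts among 430 DMSO calls (6.98%, 4.76 to 9.81), 21 UNC6852-only (4.53%) and 31 UNC1999-only (7.01%). VAX1 had 3 DMSO-only contacts, 1 UNC6852-only and no UNC1999-only. The strongest joined it to a fragment inside HSPA12A with 0.796 in UNC6852, 0.919 in UNC1999 and 6.27 in DMSO. SHOX2, a regulator of limb and heart rhythm development, had 2, the stronger with a fragment inside RSRC1 at 0.687, 0 and 7.74 in UNC6852, UNC1999 and DMSO. NKX2-2, a regulator of the ventral neural tube and pancreas, had 2, with 0.271 in UNC6852, 0.367 in UNC1999 and 6.18 in DMSO for the stronger, in which it was the other end. NKX2-2 also had 1 UNC1999-only contact, and SHOX2 had none of the other classes. Neural and neural crest regulators had 6 DMSO-only contacts (4.76% of 126 DMSO calls), 13 UNC6852-only (11.4% of 114 UNC6852 calls, 6.21 to 18.7) and 6 UNC1999-only (5.41% of 111 UNC1999 calls). NKX1-2 had 2 of the DMSO-only contacts, which were all of its DMSO calls in range, and SOX10, a regulator of neural crest, and ATOH1, a regulator of hair cells and cerebellar granule neurons, had 1 each at 6.0 and 5.56 in DMSO. SOX10 also had 1 UNC6852-only contact, and NKX1-2 and ATOH1 had none of the other classes.

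Mesoderm and endoderm regulators had 14 DMSO-only contacts (5.60% of DMSO calls), 20 UNC6852-only (7.55%) and 11 UNC1999-only (4.62%). EOMES, a T-box regulator of mesendoderm, met a fragment inside NEK10 over 364 kb with 0.419 in UNC6852, 0.449 in UNC1999 and 7.78 in DMSO. GATA4, a regulator of heart and endoderm, met a fragment 293 kb away with 0.531, 0.148 and 7.41, and FOXE3, a regulator of the lens, met a fragment inside TRABD2B with 0, 0 and 6.98, in the same order. Each of these genes had 1 DMSO-only contact. EOMES also had 2 UNC1999-only contacts, FOXE3 had 1 UNC6852-only contact, and GATA4 had none of the other classes. Signalling genes had 10 DMSO-only contacts (5.99%), 16 UNC6852-only (8.21%) and 10 UNC1999-only (5.99%). WNT11 had 2 of the DMSO-only contacts, the stronger at 5.91 in DMSO, while FGF10, a ligand of limb and lung budding, and WNT3A had 1 each at 7.75 and 7.20. WNT11 also had 1 UNC6852-only contact, WNT3A had 1 UNC1999-only contact, and FGF10 had none of the other classes. Genes of trophoblast and extraembryonic lineages had 6 DMSO-only contacts (4.05%), 4 UNC6852-only (2.48%) and 2 UNC1999-only (1.49%). The DMSO-only contacts included 1 of SOX17 at 6.94 and 1 of ISL1 at 6.83 in DMSO. ISL1 also had 1 UNC1999-only contact, and SOX17 had none of the other classes.

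Polycomb and Trithorax genes themselves had 5 DMSO-only contacts among 82 DMSO calls (6.10%, 2.01 to 13.7), 3 UNC6852-only (5.17%) and 4 UNC1999-only (6.35%). KDM6B, which removes the mark that PRC2 places, shared its end with DNAH2 and had 2 of the DMSO-only contacts. The stronger met ALOXE3 over 265 kb with 0 in both compounds and 5.65 in DMSO. KMT2D, a methyltransferase of histone H3 lysine 4, had 1, with 0.851 in UNC6852, 0 in UNC1999 and 5.05 in DMSO. KDM6B also had 1 UNC1999-only contact, and KMT2D had none of the other classes. Naive genes had 1 DMSO-only contact among 41 DMSO calls (2.44%), at ESRRB with 5.27 in DMSO, 1 UNC6852-only among 52 UNC6852 calls (1.92%) and 2 UNC1999-only among 36 UNC1999 calls (5.56%). ESRRB itself also had 2 UNC1999-only contacts. Genes of general and primed pluripotency had no DMSO-only contact among 21 DMSO calls (upper bound 16.1%), 2 UNC6852-only among 21 UNC6852 calls and no UNC1999-only among 22 UNC1999 calls. Housekeeping genes had 1 DMSO-only contact among 17 DMSO calls (5.88%), at ends of VPS29 and RAD9B with 6.20, no UNC6852-only among 17 UNC6852 calls and 2 UNC1999-only among 18 UNC1999 calls. Over all 10 lists the share was 5.23% for DMSO-only (83 contacts), 5.67% for UNC6852-only (94) and 5.09% for UNC1999-only (78), near the shares over all calls. Counts of a list depend on how near a gene end must be, and the DMSO-only total of 83 was 17 with the gene end inside the fragment and 221 within 5000 bp.

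**Figure D3:**
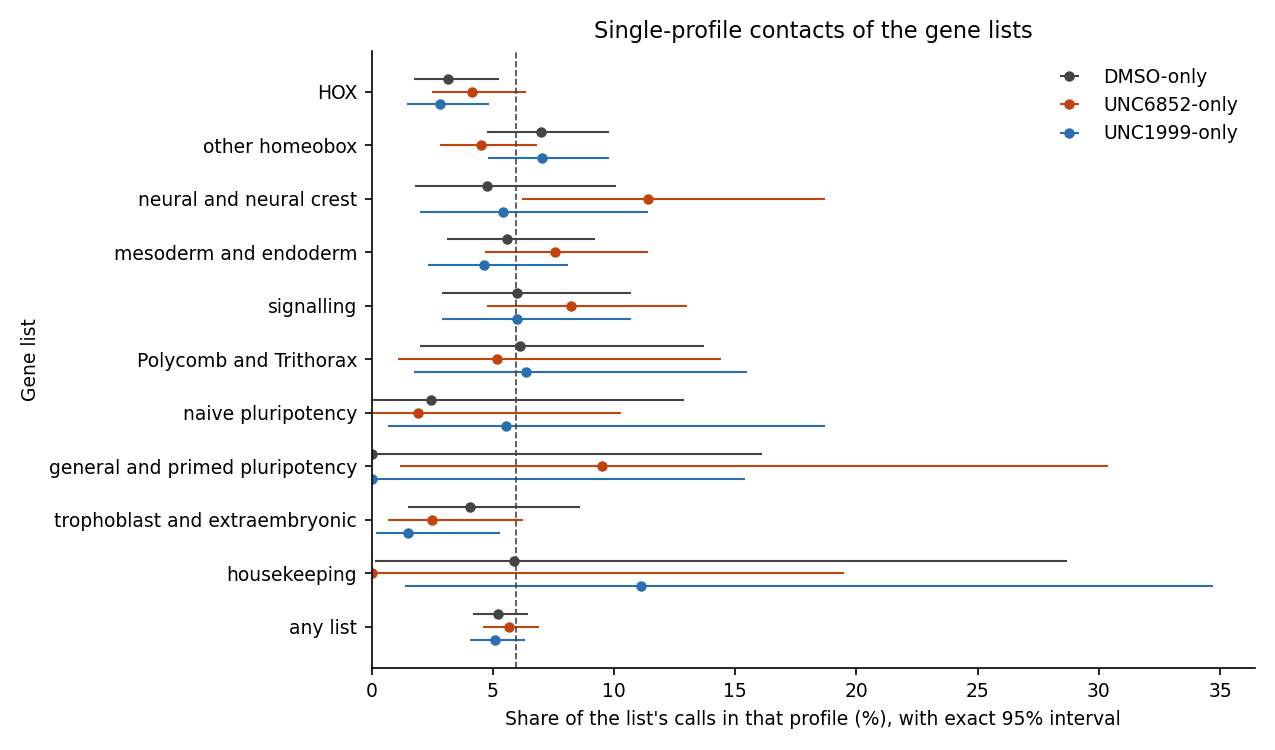
Share of each gene list's calls within 500 kb that were DMSO-only, UNC6852-only or UNC1999-only (x axis, percent of the list's calls in that profile), with exact 95% binomial intervals as horizontal lines. The dashed line is the DMSO-only share over all calls, 5.94%. The HOX points lie at 3.17%, 4.13% and 2.80%. The UNC6852-only HOX interval and most intervals of the other lists span the line.

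DMSO-only contacts of a single gene were few. Of 5611 genes with a DMSO call in range, 1106 had at least 1, 115 at least 2 and 20 at least 3. For UNC6852-only contacts 1166, 157 and 26 genes did, and for UNC1999-only contacts 1122, 127 and 17. Genes with at least 2 contacts of one class and none of the others numbered 61 for DMSO-only, 80 for UNC6852-only and 56 for UNC1999-only. FERD3L, DMRT1 and REST, outside the naming rule, were picked after their values were seen. FERD3L, a regulator of neural progenitors, had 5 DMSO-only, no UNC6852-only and 1 UNC1999-only contacts, with 19 calls in range in UNC6852, 28 in UNC1999 and 32 in DMSO. DMRT1, a regulator of the testis, had 5, 2 and 1 such contacts, with 7 calls in UNC6852, 4 in UNC1999 and 10 in DMSO. REST, a repressor of neuronal genes, had 3 DMSO-only contacts and none of the other classes, with 4 calls in UNC6852, 3 in UNC1999 and 4 in DMSO. The calls of these genes include their single-profile contacts, which the rule fixes as called in 1 profile only. Adjoining contacts of 1 bait were rare in each class. Among DMSO-only contacts, 74 (2.58%, 2.03 to 3.23) had another of the same bait at most 5 fragments away, against 112 (3.54%, 2.92 to 4.24) of UNC6852-only and 76 (2.78%, 2.20 to 3.47) of UNC1999-only contacts. Other ends had a median length of 5255 bp. The longest DMSO-only runs held 3 contacts, in 2 places.

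The bait with most DMSO-only contacts lay on chromosome 4 (9498383 to 9499965), 47.7 kb from DEFB131A, and had 5 of them, with 1 call in range in UNC6852, 2 in UNC1999 and 7 in DMSO. A run of 3 was its own, inside SLC2A9, a urate transporter gene. There, other ends at 444, 449 and 465 kb scored 0.393, 0.415 and 0 in UNC6852, 0.521, 0.537 and 0 in UNC1999, and 7.90, 7.95 and 6.58 in DMSO. Its other members, at 156 and 329.7 kb, scored 6.61 and 5.54 in DMSO. The other run lay beyond RASL11A on chromosome 13, from a bait 30.2 kb from USP12, with DMSO scores of 5.33, 5.51 and 5.94. Among the runs of 2, the bait near OAT had a second contact inside CHST15, at 340.4 kb, with 0.583 in UNC6852, 0.659 in UNC1999 and 6.08 in DMSO. The bait at HTR1B, a serotonin receptor gene, had 4 DMSO-only contacts between 182 and 467 kb, on both sides of it, with DMSO scores of 8.06, 6.56, 6.23 and 5.00 and treated scores of at most 0.680. They were its only calls in range in the 3 profiles. The bait at EPHB6, an ephrin receptor gene, had 3, at 10.2, 9.60 and 5.85 in DMSO, with 5 calls in UNC6852, 3 in UNC1999 and 10 in DMSO. A bait 69.1 kb from BAIAP2L1 had 3, at 7.34, 7.18 and 6.94 in DMSO, with 1 call in UNC6852, none in UNC1999 and 4 in DMSO, and the bait at ADRA1D, an adrenergic receptor gene, had 3, at 7.37, 6.43 and 5.77, with 13 calls in UNC6852, 6 in UNC1999 and 13 in DMSO. The DMSO calls of these baits include their DMSO-only contacts, which the rule fixes as called in DMSO and in neither compound. These baits were ranked by the count the scores gave, and UNC6852-only contacts also reached 5 at a bait and UNC1999-only contacts 4.

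Neighbouring fragments gave another reading of the same places. The rule did not use them, except where the neighbour was itself a contact of the same class. Of the DMSO-only contacts, 592 (20.6%, 19.2 to 22.2) had a fragment within 5 of the other end that was called from the same bait in at least 1 compound. The like share was 21.5% for UNC6852-only and 20.6% for UNC1999-only contacts in their other profiles. Such neighbours were called in UNC6852 for 13.7% of DMSO-only contacts, in UNC1999 for 12.1% and in DMSO itself for 15.1%. The DMSO share includes 74 contacts (2.58%) with another DMSO-only contact nearby, which by the rule cannot be called in a compound. Around UNC6852-only contacts the profile that chose them stood first in the same way, with 16.9% in UNC6852, 13.6% in UNC1999 and 13% in DMSO. Around UNC1999-only contacts the shares were 13%, 13.9% and 12.5% in that order. Contacts of the same class count for their own profile there too, so the rule itself favours that profile. No neighbour was called in any profile for 2060 DMSO-only contacts (71.8%), against 70.5% of UNC6852-only and 72.7% of UNC1999-only contacts and 24.9% of all DMSO calls. DMSO-only contacts mostly stood alone, as did the other classes.

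**Figure D4:**
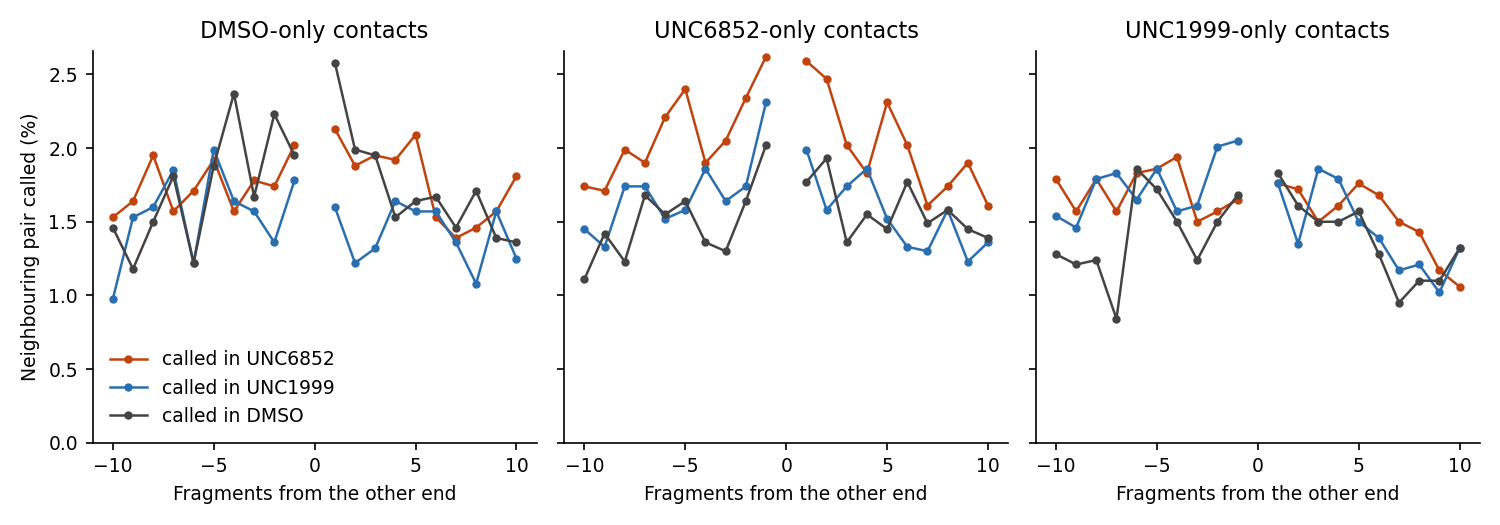
Share of contacts (y axis, percent) whose pair from the same bait was called at each fragment offset from the other end (x axis, fragments), with a line for each profile, around DMSO-only (left), UNC6852-only (middle) and UNC1999-only contacts (right). At an offset of +1 from DMSO-only contacts, 2.13% were called in UNC6852, 1.60% in UNC1999 and 2.58% in DMSO. At -1 the shares were 2.02%, 1.78% and 1.95% in the same order, and no point in any panel passes 2.62%. Neighbours of the same class are included and count only in the profile that chose them.

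Captured fragments next to the bait gave a second reading of the same other end. Of the DMSO-only contacts, 2117 (73.8%) had another bait at most 2 fragments away. That bait's pair with the same other end was called in UNC6852 for 72 of them (3.40%), in UNC1999 for 80 (3.78%) and in DMSO for 77 (3.64%, 2.88 to 4.53). The 3 shares lay within each other's intervals, which cover counting error only. Pairs of a neighbouring bait that were themselves DMSO-only count in DMSO alone. The like share over all DMSO calls is not given here, so whether these values are low for a call is unknown. For UNC6852-only contacts these shares were 6.28% in UNC6852, 5.26% in UNC1999 and 5.69% in DMSO, and for UNC1999-only contacts 3.60% in UNC6852, 3.45% in UNC1999 and 3.55% in DMSO.

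The other contacts of the baits were compared with all single-profile contacts left out. The 2633 baits with DMSO-only contacts, of 21000 baits with a listed pair in range, had 4567 other calls in UNC6852, 4279 in UNC1999 and 4734 in DMSO. The ratio of DMSO calls to the mean of the compounds was 1.10 times that over all baits. Baits of UNC6852-only contacts had 1.12 times, and baits of UNC1999-only contacts 1.07 times, as many calls in their own profile by the same measure. Of the baits with DMSO-only contacts, 1983 had another contact in range to compare. Among these, calls in UNC6852 were fewer than in DMSO for 753, more for 737 and equal for 493. Calls in UNC1999 were fewer than in DMSO for 818, more for 689 and equal for 476. Baits of UNC6852-only contacts had more calls in UNC6852 than in DMSO in 956 cases and fewer in 646. Against UNC1999, they had more in 927 and fewer in 652. Baits of UNC1999-only contacts had more calls in UNC1999 than in DMSO in 762 cases and fewer in 692. Against UNC6852, they had more in 661 and fewer in 717. Of the 2633 baits, 412 (15.6%) also had an UNC6852-only contact and 355 (13.5%) an UNC1999-only contact. Over all 21000 baits, 2857 had an UNC6852-only contact and 2511 an UNC1999-only contact. Bait length moved with the classes: the median was 595 bp for DMSO-only contacts against 636 bp for all DMSO calls, 504 against 619 bp for UNC6852-only and UNC6852 calls, and 559 against 631 bp for UNC1999-only and UNC1999 calls. Its part in the results was not tested.

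DMSO-only contacts differed in frequency between chromosomes. On chromosome 22 they were 11.9% of DMSO calls (53 contacts), with 11.4% for UNC6852-only and 12.3% for UNC1999-only contacts. Chromosome 19 had 10.5%, 12.9% and 11%, and the X chromosome 10.5%, 9.01% and 9.55%, in the same order of classes. The lowest DMSO-only shares were those of chromosome 5, with 3.86%, 4.13% and 3.93%, chromosome 8, with 3.89%, 4.61% and 4.48%, and chromosome 14, with 3.96%, 5.40% and 4.28%. The classes did not keep 1 order: chromosome 21 had 5.85% DMSO-only, 4.04% UNC6852-only and 5.63% UNC1999-only contacts, and chromosome 4 had 5.53%, 4.46% and 4.43%. The largest of the autosomes, chromosome 1, had 282 DMSO-only contacts (5.20%).

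**Figure D5:**
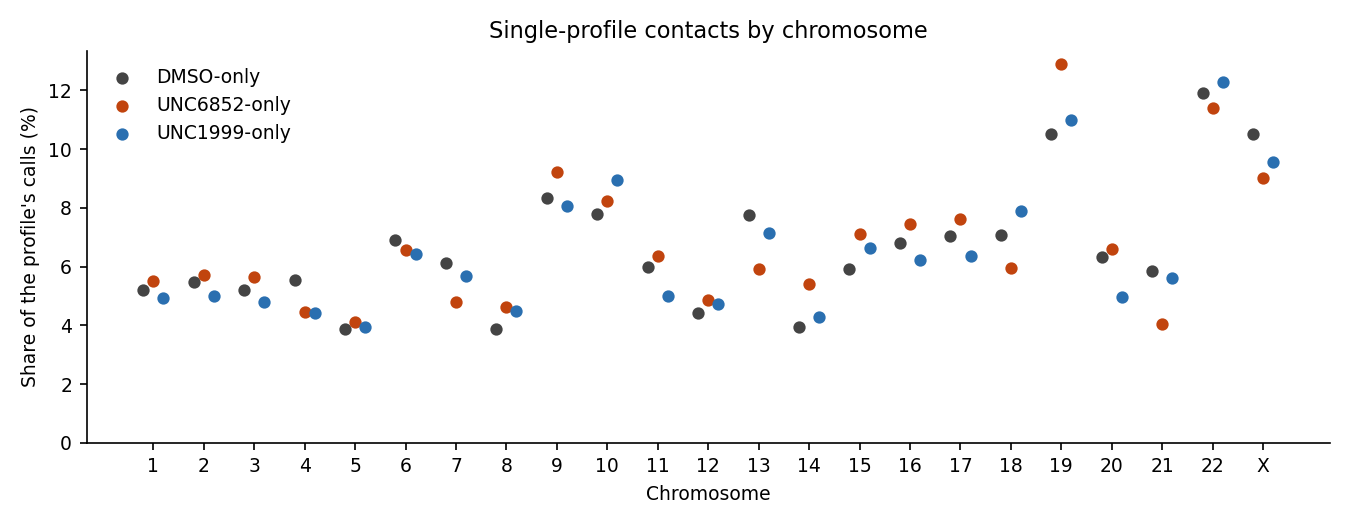
Share of each profile's calls within 500 kb (y axis, percent) that were DMSO-only, UNC6852-only or UNC1999-only, by chromosome (x axis), with 1 point per class. Chromosome 22 stands highest for DMSO-only (11.9%) and UNC1999-only (12.3%) contacts and chromosome 19 for UNC6852-only contacts (12.9%).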

How the data were processed

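Each deposited value is a CHiCAGO score, pooled by the authors over the 15 libraries of a condition, per the file headers and the labels. The genome build is GRCh38, per the submitters' processing notes, and for the aligner and caller no version is given in the sources used here. Every listed pair reached 5 in at least 1 column, and read depth is unknown.

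From these scores, a contact was called at 5 or more and absent under 1. Shares have exact (Clopper-Pearson) 95% binomial intervals. Genes came from the RefSeq table of GRCh38.p14, with 20056 protein-coding genes; a fragment within 1000 bp of either annotated gene end was assigned to it, and a promoter window counted when it overlapped the fragment by at least 1 base. All 503 entries of the 10 gene lists matched, 3 by a synonym. Where no gene end was near, the gene holding the fragment or the nearest gene is named. Neighbours were other ends at most 5 fragments away, and neighbouring baits at most 2.

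Contacts and lists were chosen with earlier results of these data known. Named contacts were the 10 with the highest DMSO score, the 5 baits with most members, the 10 strongest with a gene end at the other end, up to 3 genes per list and the longest runs; 1 contact so chosen is not reported here. The promoters shown are 5 of the first 8 at named contacts in order of DMSO score, outside chromosome 8. The code of the rule and of the neighbour count was run on simulated scores with planted answers. This checks the code only, not the choice of limits. Alternatives are given in the closing section. Python 3.11.15, numpy 2.4.6, pandas 2.3.3, scipy 1.17.1 and matplotlib 3.10.9 were used.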

Additional observations from a re-analysis of the deposited data

How the results depend on the processing

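No paired analysis was possible because each condition has 1 pooled column, and for the same reason no replicate could be left out. Numbers are given for DMSO-only, UNC6852-only and UNC1999-only contacts in that order. With a call threshold of 7 they were 269, 368 and 310, and with 10 they were 13, 25 and 15. With absence at exactly 0 they were 585, 776 and 546, and with absence under 3 they were 12768, 13564 and 12199. With distances up to 2 Mb they were 6485, 7357 and 6256. Quantile normalization over all listed pairs gave 4248, 1540 and 1261, and over the pairs in range, added after seeing the data, 2932, 2689 and 2797. The other settings, which were 20 to 500 kb, captured other ends, equal numbers of calls, leaving out the 1% of baits with the highest number of pairs, no called neighbour within 2 fragments, merging of contacts at most 2 fragments apart, and, added after seeing the data, a limit for absence at the quantile of a DMSO score of 1, kept every number within 1.5 times. As a share of calls, DMSO-only contacts ranked highest with absence under 3, with equal numbers of calls (5.90%, 5.85% and 5.73%), with both quantile normalizations and with the quantile limit, and UNC6852-only contacts ranked highest otherwise. The cause of these changes in rank was not tested.

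The share with a neighbour called in another profile was 10.4%, 12% and 10.6% with a window of 2 fragments, 30.7%, 32.3% and 30.6% with 10, and 22.7%, 23.6% and 22.6% with a neighbour threshold of 3. Another contact of the same class stood nearby for 1.11%, 1.80% and 1.43% within 2 fragments and for 4.15%, 5.50% and 4.28% within 10. A gene end at the other end was found for 8.78%, 9.61% and 10.7% at 0 bp and 24.6%, 26.0% and 25.3% at 5000 bp, and a promoter window, also added after seeing the data, for 4.36%, 4.58% and 4.31%. Over all calls, a promoter window overlapped the other end for 3.62% in DMSO, 3.59% in UNC6852 and 3.56% in UNC1999, below each class. The contacts of all lists numbered 17, 28 and 23 at 0 bp and 221, 283 and 221 at 5000 bp. For the single lists at 0 and 5000 bp, 54 numbers differed by more than 1.5 times from those at 1000 bp and 6 did not. The read depth behind the scores is unknown, so depth and contact frequency cannot be told apart.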
